A study of Mus musculus with 11 samples.

Results

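The genes described here are 10 immediate early genes, Fos, Fosb, Jun, Junb, Egr1, Egr3, Nr4a1, Nr4a3, Arc and Npas4, taken by symbol from count tables that list 55421 genes. The RNA was bound to ribosomes of Purkinje cells in mouse cerebellum on postnatal day 56. In these mice Cre recombinase driven by the Pcp2 promoter, which is active in Purkinje cells, acts on the Rpl22 locus so that the ribosomal protein carries an HA tag, and the tagged ribosomes were precipitated from whole cerebellum. There were 4 knockout libraries (Pcp2Cre;Tie2flox/flox;Rpl22HA/HA) and 7 control libraries (Pcp2Cre;Rpl22HA/HA), 1 per animal tag, so both groups carried the constitutive Cre and the tagged ribosome, and only the knockouts carried the floxed alleles of Tie2. Batch 1, as the labels name it, held knockouts F371 and M374 and control M379, batch 2 held knockout M390 and control M386, and batch 3 held knockout M456 and controls F473, M476, M477, M479 and M480. The comparison asks how the ribosome-bound RNA of these genes differs when Tie2, the angiopoietin receptor encoded by Tek, is targeted in Purkinje cells.

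Immediate early genes are transcribed within minutes of a stimulus, without new protein synthesis, when calcium and growth factor signals reach transcription factors such as CREB, SRF and MEF2 that are already in the nucleus. Most of their products are themselves transcription factors (Fos and Jun proteins, which pair as AP-1, and the Egr and Nr4a families), while Arc acts at synapses. In the cerebellum they have been used as markers of recent activity in granule cells and Purkinje cells.

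The promoters are described first, since inducible transcription of these genes starts from binding sites there. RefSeq windows on GRCm38.p6 were used for 7 members, Fos, Fosb, Jun, Junb, Nr4a1, Nr4a3 and Npas4, and the 250 bases before the transcript start were searched on both strands. The transcript start used is the outer end of the gene for Fos, Jun and Junb and lies inside the annotated span for Fosb, Nr4a1, Nr4a3 and Npas4. TGACG, the core of the cAMP response element that CREB binds, was present in 6 of the 7 windows and in 17.8% of all 32851 windows of that length. The full element TGACGTCA, which contains this core, was in 0 of the 7 (1.55% of all), the AP-1 sites TGACTCA and TGAGTCA in 0 (4.46%), and the CArG box of SRF in 0 (1.47%). The Egr sites GCGTGGGCG and GCGGGGGCG were in 2 of the 7, Fosb and Nr4a1 (3.06% of all), and TATAAA in 1, Fos (12.4%). Nr4a1 and Nr4a3 held 4 cores each. Sites farther upstream, or in the members without a window, were not searched, so a count of 0 does not cover the whole promoter.

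3 stretches are printed 5′ to 3′ with matches in capitals, Jun and Nr4a3 because they rose in the knockouts, and Fos because it differed between batches. The Fos stretch, chr12:85473640-85473889 on the plus strand, has cores that begin at -129 and -66, counted in bases from the transcript start, and a TATAAA at -33. In the Jun stretch, chr4:95052223-95052472 on the minus strand, none of the motifs above was found. Its capitals mark TGACATCA, a variant of the response element, at -45 (2.93% of all windows) and a match to the MEF2 motif at -33 (2.92%), both searched for after this sequence had been read. The Nr4a3 stretch, chr4:48045074-48045103 on the plus strand, begins at -231 from the transcript start of its RefSeq window, 48045305, which lies 227 bases inside the span of the gene given with its values, and holds 2 of its cores, the latter on the opposite strand.
Fos: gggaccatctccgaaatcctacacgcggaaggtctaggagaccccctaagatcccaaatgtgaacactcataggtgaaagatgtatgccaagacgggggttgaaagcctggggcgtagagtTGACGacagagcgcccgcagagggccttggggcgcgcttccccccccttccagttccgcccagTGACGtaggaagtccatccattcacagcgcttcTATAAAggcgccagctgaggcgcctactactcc
Jun: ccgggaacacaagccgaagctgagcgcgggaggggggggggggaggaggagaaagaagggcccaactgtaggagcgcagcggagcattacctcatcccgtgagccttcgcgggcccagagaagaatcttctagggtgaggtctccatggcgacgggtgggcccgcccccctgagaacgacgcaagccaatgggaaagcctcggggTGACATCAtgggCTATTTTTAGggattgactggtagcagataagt
Nr4a3: TGACGtagcgtcccatgtCGTCAcattgac

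Knockout libraries held 2.58 to 4.20 M reads in genes and control libraries 4.09 to 5.14 M. Tek, the targeted gene, was at 0, 2.07, 0 and 5.59 CPM (TMM-scaled read counts relative to library size) in the libraries labelled knockout F371, M374, M390 and M456, from 21 reads, and at 0 to 7.90 CPM with a median of 2.54 in the controls, from 93 reads. M456 was above 6 of the 7 controls, so Tek did not bear out its label, and the other libraries overlapped as well. Tek is expressed in endothelial cells, and the reads here cannot be placed inside or outside the deleted part. M456 is the only library labelled knockout in batch 3, and each direction given for that batch rests on its label. All 22 Purkinje cell markers examined had reads in every library (5 were higher in knockouts and 3 lower), with summed levels of 8089 to 10762 CPM in the knockouts and 8366 to 9632 CPM in the controls. Markers of other cells were present as well. Granule cell markers summed to 644 to 1879 CPM in knockouts and 499 to 988 CPM in controls, and 10 of 15 tested were higher in knockouts with 0 lower (Barhl1 was at 0 in 3 libraries and Zic2 in 1). Bergmann glia and astrocyte markers summed to 913 to 1957 CPM against 849 to 1134 CPM (9 of 16 higher, 1 lower) and oligodendrocyte markers to 423 to 1068 CPM against 368 to 805 CPM (3 of 13 higher, 0 lower). Interneuron and unipolar brush cell markers summed to 248 to 396 CPM against 164 to 264 CPM (5 of 9 higher), microglia markers to 25.1 to 129 CPM against 37.4 to 69.0 CPM (3 of 9 higher, with Trem2 at 0 in 9 libraries and P2ry12 in 4), and endothelial and mural markers to 36.7 to 148 CPM against 26.1 to 162 CPM (1 of 11 higher, with Kcnj8 at 0 in 3 libraries). The granule cell, Bergmann glia and astrocyte, and oligodendrocyte sums were all highest in M456, which was also the library with the fewest reads. So were the Purkinje cell sum and the interneuron and unipolar brush cell sum. The microglia sum was highest in knockout M390, and the endothelial and mural sum in control M480. In bulk samples such as these, fewer cells of a type and less RNA per cell cannot be told apart.

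Of the immediate early genes, Jun, Egr1 and Nr4a3 rose in the knockouts, with log2 fold changes between 1.11 and 1.58, and all 3 calls were lost when the library labelled knockout M456 was left out, where the log2 fold changes were 0.97, 1.26 and 1.58. Batch 3 then held controls alone, which with batch in the model no longer entered the estimate of the genotype difference. Genes called over the whole table fell from 3257 to 335 in that setting. The summed level of the 10 genes was 199.7, 195 and 111 CPM in knockouts F371, M374 and M390 and 153 CPM in M456, against 52.7 to 91.8 CPM in the 7 controls. The sum is weighted toward Jun, Egr1 and Nr4a3, which had the highest knockout means of the members (42.5, 35.9 and 28.1 CPM). The groups did not overlap in this sum, but they overlapped for each gene alone. Of the gene lists summed in the same way, a list of 28 other rapid response genes was also apart. It summed to 1131 to 1547 CPM in knockouts and 950 to 1068 CPM in controls. The sums of the remaining lists, cell markers included, overlapped. Sums of genes drawn without regard to function were not compared. 8 of the 10 genes had enough reads to be tested, and Egr3 and Npas4 did not. Of the 8, 3 were higher and 0 lower at an adjusted p under 0.05 (quasi-likelihood test of edgeR on batch and genotype, adjusted over all 13375 genes tested), where 10.9% of all genes tested were higher and 24.4% differed in either direction. No member was lower at an unadjusted p under 0.05 by edgeR, and 0 were called lower by DESeq2 or limma. The fitted log2 fold change was positive in 7 of the 8, with a median of 1.06, whereas it was positive in 48.7% of all genes tested, with a median of -0.02. Because the 8 genes were measured in the same libraries, these counts are not independent of each other.

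**Figure D1:**
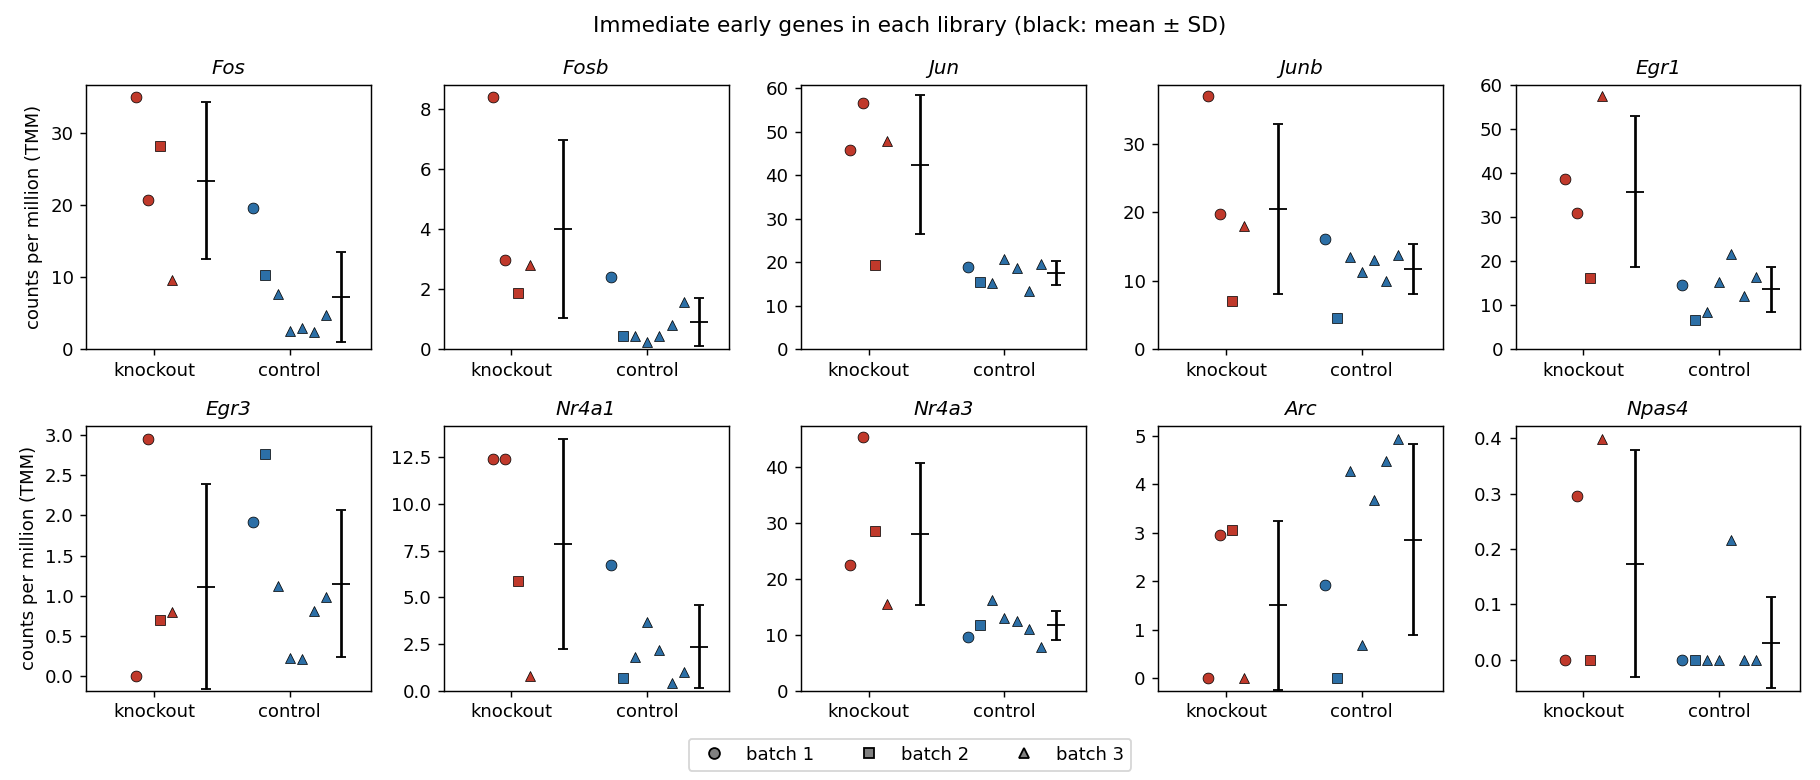
Level of each of the 10 immediate early genes in CPM (y axis, TMM-scaled) in the 4 knockout (red) and 7 control (blue) libraries, with the batch as the shape of the point and the mean ± SD in black; each panel has its own scale. In Jun, 3 of the 4 knockouts stand far above the 7 controls, which lie between 13.4 and 20.8 CPM, while Arc and Npas4 have libraries at 0.

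AP-1 can be formed by a Fos and a Jun protein. Jun (ENSMUSG00000052684, chromosome 4 from 95049036 to 95052222 in GRCm38) was at 45.9 CPM in F371, 56.7 in M374, 19.5 in M390 and 47.9 in M456. The 7 controls ranged from 13.4 to 20.8 CPM with a median of 18.8, so that only M390, the knockout of batch 2, lay within their range. The mean was 42.5 CPM ± 16.0 in knockouts and 17.5 CPM ± 2.76 in controls (SD, n = 4 and 7), and the log2 fold change of 1.18 ± 0.25 (SE) passed the test (edgeR adjusted p = 0.00504). The log2 ratios within batches 1, 2 and 3 were 1.41, 0.33 and 1.42. Without M456 the log2 fold change was 0.97 (edgeR adjusted p = 0.13), and without control M379 it was 1.08 (0.051).

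Junb, a relative of Jun and another partner of Fos proteins in AP-1, was at 36.9, 19.8, 7.05 and 17.97 CPM in knockouts F371, M374, M390 and M456, and at 4.599 to 16.1 CPM in the controls with a median of 12.97. The lowest knockout and the lowest control, 7.05 and 4.599 CPM, were the pair from batch 2, and each knockout was above the controls of its own batch. The difference of 0.66 ± 0.30 (log2, SE) missed the threshold (edgeR adjusted p = 0.11). It lies on chromosome 8 from 84976909 to 84978748.

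Fos, whose RNA is widely used as a mark of recent neuronal activity, was at 34.9, 20.7, 28.2 and 9.59 CPM in knockouts F371, M374, M390 and M456. In the controls it was at 19.6 CPM in M379 of batch 1, 10.3 CPM in M386 of batch 2, and 2.44 to 7.64 CPM in the 5 controls of batch 3. Knockouts and controls therefore overlapped over all libraries, since M456 lay below controls M379 and M386, but within each batch the knockouts were above the controls. The means were 23.3 CPM ± 10.9 and 7.20 CPM ± 6.23 (SD), and the log2 fold change of 1.01 ± 0.38 (SE) missed the threshold (edgeR adjusted p = 0.065). Fos passed when the batch term was left out (log2 fold change 1.71, adjusted p = 0.029), by the DESeq2 Wald test (adjusted p = 0.041), and without knockout M374 (0.036) or control F473 (0.039).

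Fosb, which also encodes a stable shortened protein that accumulates after repeated stimulation, had few reads, 54 over the knockouts and 29 over the controls. It was at 8.37, 2.95, 1.88 and 2.80 CPM in F371, M374, M390 and M456, and at 0.231 to 2.40 CPM in the controls with a median of 0.46. M390 lay below the highest control, M379 of batch 1, and all 4 knockouts lay above the controls of their batches. Its estimate of 1.65 ± 0.67 (log2, SE) was not past the threshold (edgeR adjusted p = 0.079), although it was the largest estimate among the 8 genes, and it passed without the batch term (adjusted p = 0.031). Fos lies on chromosome 12 from 85473890 to 85477274 and Fosb on chromosome 7 from 19302696 to 19310118.

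Egr1, a zinc finger transcription factor also known as Zif268, had the smallest p of the members. It was at 38.7, 31.0, 16.2 and 57.5 CPM in F371, M374, M390 and M456, and at 6.67 to 21.6 CPM in the controls with a median of 14.6. Only M390 lay within the range of the controls, and it was well above its batch partner M386, which had the lowest level of all. The means were 35.9 CPM ± 17.2 in knockouts and 13.6 CPM ± 5.02 in controls (SD, n = 4 and 7). Egr1 rose by 1.58 ± 0.28 on the log2 scale (SE, edgeR adjusted p = 0.00278), with ratios of 1.23, 1.22 and 1.92 in batches 1, 2 and 3. Leaving out 1 library at a time kept the call in 10 of 11 cases, and without M456 the log2 fold change was 1.26 with an adjusted p of 0.098. Egr1 is ENSMUSG00000038418, on chromosome 18 from 34861207 to 34864956.

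Egr3, a relative of Egr1, had 15 reads over the knockouts and 36 over the controls, with 0 in F371, and was at 0 to 2.95 CPM in knockouts and 0.216 to 2.76 CPM in controls. With the pooled reads the knockout to control ratio was 0.977, with an exact binomial 95% interval of 0.497 to 1.83 that covers counting error only and ignores the batches. Egr3 had too few reads to enter the test, so a difference was not tested.

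The Nr4a genes encode orphan nuclear receptors that bind DNA without a known hormone. Nr4a3 (ENSMUSG00000028341, chromosome 4 from 48045078 to 48086447) was at 22.5, 45.5, 28.7 and 15.6 CPM in F371, M374, M390 and M456, and at 7.90 to 16.2 CPM in the controls with a median of 11.7. M456 was the only knockout within the range of the controls, below control F473 of its batch. The means were 28.1 CPM ± 12.8 and 11.7 CPM ± 2.64 (SD), and the log2 fold change of 1.11 ± 0.37 (SE) passed narrowly (edgeR adjusted p = 0.0391). Ratios in batches 1, 2 and 3 were 1.77, 1.25 and 0.35 (log2). The call held in 3 of 11 analyses that left out 1 library, those without F371, F473 or M476, and without control M379 the log2 fold change was 0.76 (edgeR adjusted p = 0.24). Without M456, which had the lowest level of the 4, it was 1.58 (adjusted p = 0.065).

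Nr4a1, also known as Nur77, was uneven among the knockouts. It was at 12.4 CPM in both F371 and M374, 5.87 in M390 and 0.799 in M456, and at 0.407 to 6.71 CPM in the controls. The highest control was M379 of batch 1, and M456 lay among the lowest controls, so that the log2 ratios of batches 1, 2 and 3 were 0.84, 2.42 and -0.83. The fitted difference of 0.86 ± 0.77 (log2, SE) was not called (edgeR adjusted p = 0.43). It was 0.15 without M390, 0.18 without M386 and 1.59 without M456. Its gene lies on chromosome 15 from 101253902 to 101274795.

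Arc, which regulates AMPA receptor removal at synapses and whose mRNA is carried into dendrites, had 23 reads over the knockouts and 94 over the controls. It had 0 reads in knockouts F371 and M456 and in control M386, was at 2.95 CPM in M374 and 3.05 CPM in M390, and reached 4.93 CPM in control M480. In batch 3 all 5 controls had reads and the knockout had 0, whereas in batch 2 the knockout had reads and the control had 0. The fitted difference was -0.26 ± 1.35 (log2, SE, edgeR adjusted p = 0.91), and without M456 it was 1.15. The pooled knockout to control ratio was 0.574, with an exact binomial 95% interval of 0.347 to 0.913 that covers counting error only and leaves out the batches and the spread between libraries. Arc lies on chromosome 15 from 74669081 to 74672570.

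Npas4, a transcription factor induced by calcium entry in neurons, was near the detection limit, with 2 reads over the 4 knockouts and 1 over the 7 controls. The pooled knockout to control ratio of 4.69 had an exact binomial 95% interval of 0.244 to 277. It was at 0 in 8 of the 11 libraries, and 3 reads, the floor used here, correspond to 0.592 to 1.20 CPM depending on the library. Npas4 lies on chromosome 19 from 4984353 to 5003439 and Egr3 on chromosome 14 from 70077317 to 70082613.

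**Figure D2:**
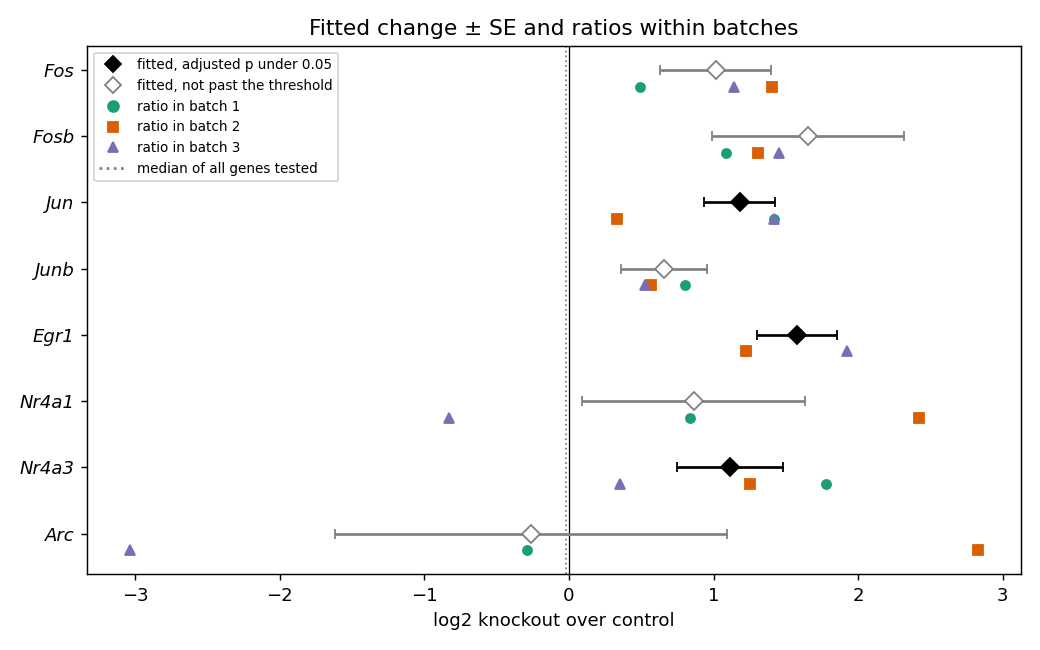
Fitted log2 knockout over control (x axis) with its SE for the 8 tested genes (diamonds, filled where the adjusted p is under 0.05) and, below each diamond, the log2 ratio of mean CPM within batches 1, 2 and 3, where batches 1 and 2 coincide for Egr1. The filled diamonds are Jun at 1.18, Egr1 at 1.58 and Nr4a3 at 1.11, and the ratios of Arc run from -3.04 in batch 3 to 2.83 in batch 2.

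Set against the controls of the same batch, each of the 4 knockouts was above every control for Fos, Fosb, Jun, Junb and Egr1, that is for 5 of the 8 tested genes, a count made after the values were seen, and 16.4% of all genes tested had this pattern. For 0 of the 8 were all knockouts above all controls, a pattern of 6.19% of all genes tested. The knockout of batch 2, M390, was the nearest to its control for Jun (0.33), and the knockouts of batch 1 were the nearest for Fos (0.49). The calls of Jun, Egr1 and Nr4a3 were lost when the mean level of granule cell, glial and oligodendrocyte markers was added to the model, with log2 fold changes of 0.64, 1.41 and 0.65 (edgeR adjusted p = 0.66, 0.50 and 0.76), and when the library total was added, with 0.71, 1.22 and 1.41 (adjusted p = 0.42, 0.32 and 0.33). With these terms 0 genes of the whole table passed, and 1135 and 1841 had an unadjusted p under 0.05. In every batch the knockouts had a higher marker level and a lower library total than all controls of that batch. Both terms thus ran along with genotype, and the loss of calls does not show what either contributes. In a model with a genotype difference for each batch, added after the ratios had been seen, the difference varied between batches for 0 of the 8 genes and for 0% of all genes tested (edgeR, 5 residual degrees of freedom, where arms of 1 library are taken to vary like the others). Arc had an unadjusted p under 0.05 (adjusted p = 0.23), and the adjusted p was 0.38 for Nr4a1, 0.41 for Jun and 0.46 for Nr4a3. The part of other cells and of depth in the rise of Jun, Egr1 and Nr4a3 cannot be told apart from genotype in these models. It was not otherwise tested.

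Levels also differed between the batches, with genotype in the same model, a comparison added after the counts had been seen. Fos and Junb, 2 of the 8 tested genes, differed among the 3 batches (edgeR adjusted p = 0.0157 and 0.017), where 12.6% of all genes tested did. Fos was lower in batch 3 than in the mean of batches 1 and 2 by a log2 difference of -1.72 ± 0.37 (SE, adjusted p = 0.0066), and it was the only one of the 8 that was lower there, against 6.36% of all genes tested. Fos made up 21.4% and 19.7% of the reads of the 10 genes in controls M379 and M386, and 3.75% to 11.1% in the 5 controls of batch 3. In the knockouts it made up 17.5% in F371 and 10.6% in M374 of batch 1, 25.4% in M390 and 6.25% in M456. M374 thus lay within the range of the batch 3 controls. The Egr1 estimate had the other sign, 0.84 ± 0.28 (adjusted p = 0.051). Without control M379 the Fos difference no longer passed, and batch 1 then holds knockouts alone. The labels do not say what a batch stands for, and the time of day or handling of each animal was not analysed here.

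Agreement between members was measured as the correlation of log2 CPM over the 11 libraries after each batch was centred on its mean. Over the 28 pairs of the 8 tested genes the median Pearson r was 0.40, from -0.49 for Jun and Arc to 0.88 for Jun and Egr1, and 22 of the 28 were positive. Jun and Egr1 had r = 0.884 (permutation p = 0.00036, adjusted over the 28 pairs 0.0101) and Spearman rho = 0.836 (permutation p = 0.00217, adjusted 0.0608). The permutations shuffled all 11 centred values freely, although centring ties the libraries of a batch together and genotype was left in. These p-values, and those of the pairs below, may therefore be too small. Without M379 and M456, the libraries farthest from the Jun median, r was 0.744, and in the 6 libraries of batch 3 it was 0.933. Fosb with Junb (r = 0.813, adjusted permutation p = 0.0304), Fos with Junb (0.792, adjusted 0.0351) and Fosb with Egr1 (0.754, adjusted 0.0431) also passed by Pearson's r, and by Spearman's rho each had an adjusted permutation p of 0.101. Without the 2 libraries farthest from the median of the first gene these 3 values were 0.613, 0.811 and 0.472, and in batch 3 they were 0.695, 0.874 and 0.702. Arc had negative values with Fos, Fosb, Jun, Junb and Egr1, and none of its 7 pairs passed.

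With genotype removed along with batch, the median r was -0.10 and 12 of the 28 values were positive, with 3 pairs above 0.5. Those were Fos with Junb (0.56), Fosb with Junb (0.56) and Nr4a1 with Nr4a3 (0.51), while Jun with Egr1 had 0.47 and Fosb with Nr4a3 had -0.84. These last values were not tested. The 2 libraries of batch 2 mirror each other after centring and add 1 independent point.

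**Figure D3:**
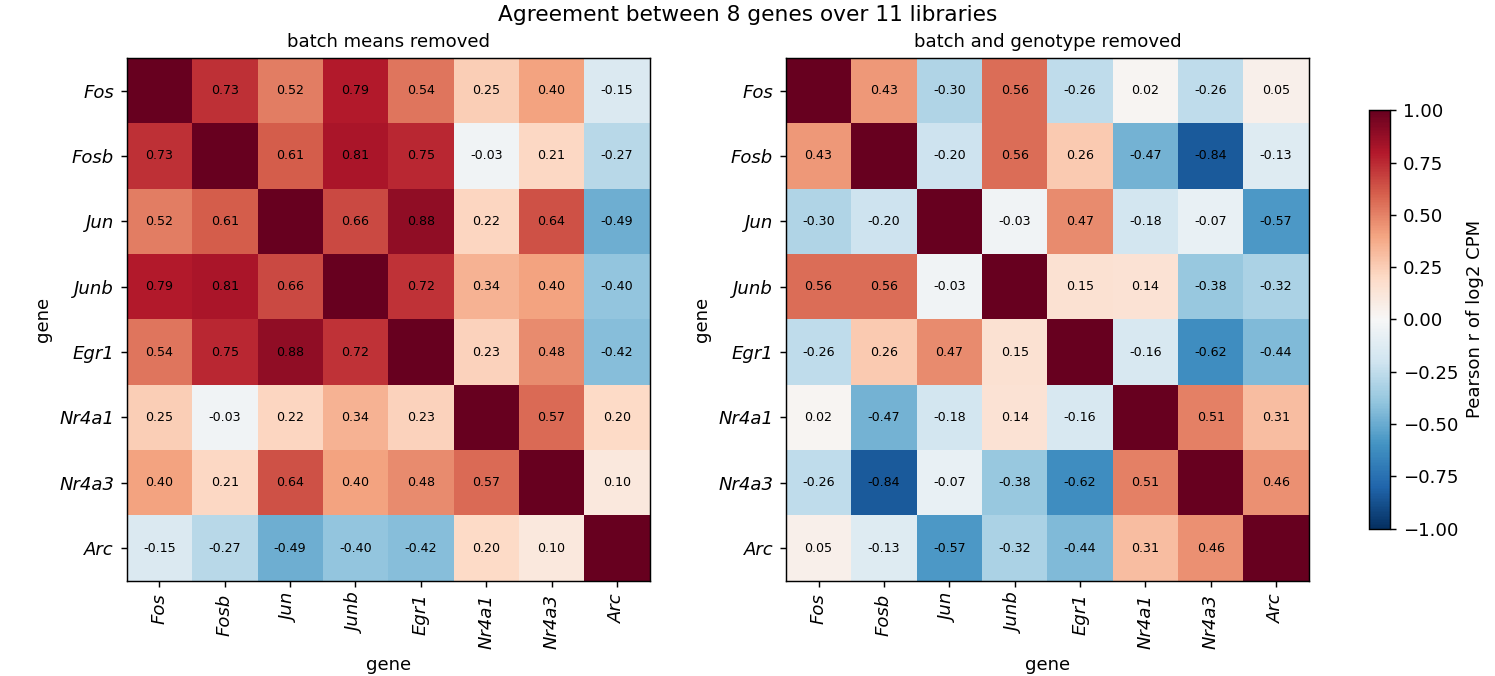
Pearson r of log2 CPM between the 8 tested genes over 11 libraries, with batch means removed (left) and with batch and genotype both removed (right); colour and number give r. On the left a block of positive values joins Fos, Fosb, Jun, Junb and Egr1, up to 0.88, and on the right the highest values are 0.56.

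Other genes of the same response were examined by lists. Of 8 further genes of the AP-1 and Maf families 2, Atf3 and Mafk, had enough reads, and neither had an unadjusted p under 0.05 by edgeR. Atf3, a stress-induced partner of Jun proteins, was at 6.43 CPM ± 5.64 in knockouts and 3.28 CPM ± 1.55 in controls (SD). Jund, the remaining Jun gene, was listed at 0 in all 11 libraries, and Egr2 had 1 read in all. The counting options are not known here, and a 0 for Jund in every library is not read as absence of its RNA. Of 5 relatives and corepressors of Egr and Nr4a genes 3 were tested and 0 passed by edgeR, DESeq2 or limma, with 0, 1 and 1 at an unadjusted p under 0.05. Nr4a2, the remaining receptor of its family, had a log2 fold change of 0.77 ± 0.62 (SE, adjusted p = 0.38). Among the partners Arnt, Arnt2 and the Rxr genes 4 were tested, and 0 passed by edgeR and limma (1 and 2 at an unadjusted p under 0.05) and 1 by DESeq2.

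Among 25 tested rapid response genes outside these families 7 rose and 1 fell in the knockouts, with a median log2 fold change of 0.18. Ier5 rose from 15.8 CPM ± 3.64 to 40.5 CPM ± 11.6 (SD), a log2 fold change of 1.20 ± 0.27 (SE, edgeR adjusted p = 0.00711). Ier3, an early response gene of cell survival, rose by 0.56 ± 0.13, the ubiquitin ligase adaptor gene Fbxo33 by 0.57 ± 0.13 and the pseudokinase gene Trib1 by 0.45 ± 0.11 (log2, SE). In batch 2 the ratios of these 4 genes were 0.17 to 0.32, lower than in the other batches. The gene that fell was Nfil3, a transcriptional repressor, with -0.63 ± 0.17, named after its value was seen because it was alone in its direction. Dusp1, a phosphatase that ends MAP kinase signals, was at 34.7 CPM ± 20.4 and 15.4 CPM ± 6.08 and did not pass (adjusted p = 0.14), and was also picked out after its value was seen.

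Delayed response genes, which follow the first wave, had 4 of 18 higher and 0 lower, with a median of 0.41. These were Cpeb3, a regulator of translation at synapses (log2 fold change 1.34 ± 0.21, SE), the small GTPase gene Arl4d (1.38 ± 0.32), Bdnf, which encodes a neurotrophin (1.45 ± 0.50), and the synaptotagmin gene Syt4 (0.44 ± 0.11). Bdnf had few reads, 125 over the knockouts and 146 over the controls, and passed narrowly (edgeR adjusted p = 0.0468).

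Upstream activators had 8 of 37 genes higher and 3 lower, with a median of 0.20. Rps6ka3, a kinase that phosphorylates CREB, rose by 0.69 ± 0.16, Camkk2, which activates the CREB kinase CaMKIV, by 0.44 ± 0.11, and the calcineurin subunit gene Ppp3ca by 0.35 ± 0.09 (log2, SE). Crtc1, a coactivator of CREB, fell by 0.58 on the log2 scale, with an SE of 0.14 (edgeR adjusted p = 0.00974). The ratios of Crtc1 were -0.74 and -0.78 (log2) in batches 1 and 3 and -0.01 in batch 2. In the rapid, delayed and upstream lists the shares of genes that rose were 28%, 22.2% and 21.6%, beside 10.9% of all genes tested, 37.5% of the 8 members, 66.7% of the granule cell markers and 22.7% of the Purkinje cell markers. The shares that fell were 4%, 0% and 8.11%, beside 13.4% of all genes tested. Without M456, a setting chosen for these lists after the data were seen, edgeR called 0 genes in the rapid, delayed and upstream lists, where 6, 5 and 5 had an unadjusted p under 0.05, and 0 of the granule cell markers, where 8 did. Over all 13760 genes tested in that setting, 64 were called higher and 271 lower, and 3129 had an unadjusted p under 0.05. With so few calls over the whole table, the counts of 0 do not set these lists apart.

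**Figure D4:**
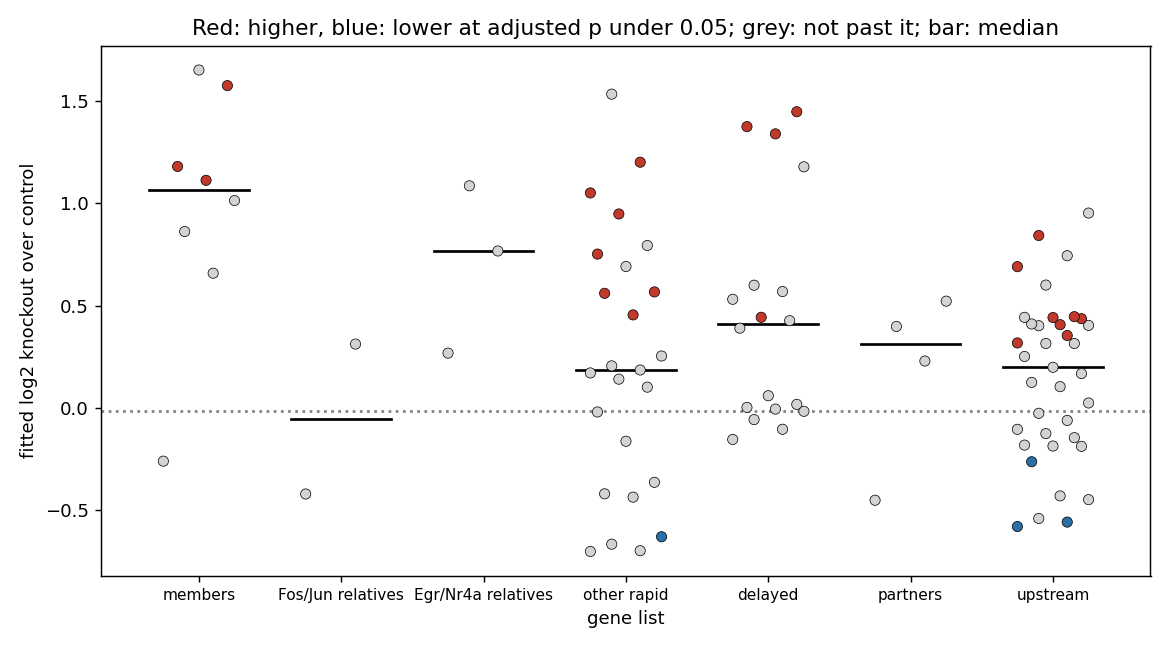
Fitted log2 knockout over control (y axis) of each tested gene in the list of members and in 6 lists of related genes (x axis), red where higher and blue where lower at an adjusted p under 0.05; black bars are list medians and the dotted line is the median of all genes tested, -0.02. The members have a median of 1.06, the rapid, delayed and upstream lists 0.18, 0.41 and 0.20.

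The genes whose levels over the 11 libraries followed the mean of the 8 members most closely, by Pearson r after batch centring among 10876 genes of at least 5 CPM, were Homer2 (0.961), Cachd1 (0.960), Tmem63a (0.959), Fgl2 (0.949) and Tmem161a (0.930). Homer2, a scaffold protein of glutamate receptors, was at 22.8 CPM ± 4.74 in knockouts and 10.1 CPM ± 4.30 in controls, and Tmem63a, a mechanosensitive channel, at 12.5 CPM ± 2.87 and 3.53 CPM ± 2.44 (SD, n = 4 and 7). Cachd1 was at 11.1 CPM ± 3.31 and 10.7 CPM ± 3.98, so its likeness did not come with a difference in unadjusted group means. These r values are the highest of many and share libraries and depth with the members, and they are given as a description.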

How the data were processed

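The deposited files hold whole-number counts of reads per gene for 1 library each, which the authors made with STAR and HTSeq on GRCm38, per the submitters' processing notes; their versions, the strand setting and any handling of duplicates were not stated in what was read here. Without the strand setting, reads of overlapping antisense genes cannot be told apart from those of the members. Lines that name no gene (18.3% to 26.1% of alignments) were left out. Labels tie each library to 1 animal tag and say no more on its origin, so p-values measure the spread between these libraries. The reads carry no molecular identifiers and so do not count independent molecules, and intervals and floors (3 counts) cover counting error only.

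Members and lists were chosen with earlier results of these data known. Counts were fitted in R 4.3.3 with edgeR 4.0.16 (filterByExpr, TMM factors, quasi-likelihood test, batch and genotype, 7 residual degrees of freedom), and two-sided p-values were adjusted by Benjamini-Hochberg over the 13375 genes tested at 0.05. A prior count of 2 was added for log2 CPM and a pseudocount of 0.5 CPM for ratios within batches, so they understate changes of low genes. Correlations had two-sided permutation p-values (100000 resamples, shuffled without regard to batch or genotype). The fit was tested on simulated data. All 10 members were named, with up to 4 called genes of each list by smallest p, and the 5 genes most like the members. Positions and promoters are from RefSeq tables of GRCm38.p6, matched by symbol (10 of 10 members for positions, 7 for promoters). Alternatives were other scalings and filters, no batch term, DESeq2 1.42.0, limma 3.58.1 with voom weights, covariates, animals tagged M, and libraries or batch 2 left out.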

Additional observations from a re-analysis of the deposited data

Results flagged for a closer look

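2 of the 20 groups of values (10 genes in knockouts and in controls) held a library set apart from the others by a gap larger than Dixon's 95% critical value, and chance marks about 1 in 20 such groups. Fosb was at 8.37 CPM in knockout F371, and the next knockout, M374, was at 2.95 CPM. Npas4 was at 0.216 CPM in control M477, from 1 read, and at 0 in the other controls. A single library with reads among libraries at 0 always passes this rule, so the share of 1 in 20 does not apply to Npas4.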

How the results depend on the processing

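Log2 fold changes of Fos, Fosb, Jun, Junb, Egr1, Nr4a1 and Nr4a3 were positive under every alternative that gave a value, and Arc had 18 negative and 4 positive values. Arc turned to 0.27 in animals tagged M, 3.42 with the library total as covariate, and ranged from -1.75 to 1.15 when 1 library was left out; the cause was not tested. Members called numbered 5 without the batch term, 0 with the marker level and 0 with the library total as covariate (edgeR, 2 members at an unadjusted p under 0.05 in each), and 0 to 4 with 1 library left out, with 0 without M456 and 1 without control M379. Genes called over the whole table numbered 3257 of 13375 in the main model (1461 higher) and 3353 without the batch term (1632 higher). They numbered 0 with either covariate (edgeR, 1135 and 1841 at an unadjusted p under 0.05), and 335 without M456 to 4632 without M390. The 1 member lower in batch 3, Fos, was 0 with the marker level as covariate, and 0 to 1 with 1 library left out. The median r between members, 0.40, was 0.083 in the 7 controls, where centring leaves only the 5 of batch 3 to vary, 0.23 in batch 3, 0.53 without centring, 0.54 without Arc, -0.10 with genotype also removed, and 0.26 to 0.53 with 1 library left out. Nr4a1 ranged from 0.15 to 1.59 with 1 library left out. The count of members whose difference varied between batches was 0 in each of the settings that could be fitted, with 1 or 2 at an unadjusted p under 0.05, and models without M390, M456, M379 or M386 could not be fitted. Few reads limit Egr3 and Npas4, and the spread between libraries limits Arc.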
